A study of Mus musculus with 55 samples.

Results

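IL-3575 is a line of the Collaborative Cross (CC), a mouse panel whose lines descend from crosses of 8 inbred strains and were then inbred themselves. Its livers are the 2 of 55 that carry the strain label IL-3575, mouse 4283 (replicate 1) and mouse 4297 (replicate 2). They were compared with the 53 livers of the other 28 lines. All mice of the series were labelled male and were naïve, without treatment, and the tissue was liver. Both IL-3575 mice were 9 weeks old and weighed 17.3 and 17.9 g, while the mean age of the other lines ran from 8 to 11.9 weeks and their mean weight from 14.7 to 32.9 g. PolyA RNA was sequenced in pairs of 50 bases. A gene was a member when its highest FPKM (fragments per kilobase of exon and per M mapped fragments) over the 55 mice was at least 2 and both IL-3575 mice lay above, or both below, every other mouse. There were 105 such genes among 11284 genes that passed the FPKM minimum.

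Mice of a CC line are close to genetically identical, and each line carries its own mosaic of founder chromosome segments. Variants in or near a gene can change how much RNA it gives or which isoforms are made, and line mates then share the change. The liver makes most plasma proteins, clears drugs and steroid hormones, and stores and exports lipids, so its transcripts include many abundant enzymes and secreted proteins. IL-3575 is a line of 2 mice, and what its genome shares and what a shared cage or day of dissection gives cannot be told apart here.

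RSEM, the program that estimated expression, assigned 27.7 and 33.1 M fragments to genes in replicates 1 and 2, against 20.5 to 33.95 M in the other mice. The line mates had a Spearman correlation of 0.972 across the 11284 genes, which are not independent replicates, against 0.926 to 0.992 for the 30 pairs of mates in other lines. Their highest correlation with a mouse of another line was 0.940 and 0.932. The 12 hepatocyte markers summed to 61036 and 67186 FPKM, between the lowest (42680) and the highest (96998) of the other mice. Xist, the RNA of the inactive X chromosome in females, was at 0 and 0.01 FPKM in the IL-3575 mice. It reached 39.5 FPKM in replicate 3 of IL-785 against its male label, and without that mouse 73 genes lay above and 35 below. Mates of IL-1052 and of IL-2750 were not always alike. For example, RP24-345H5.2, described below, had 47.6 and 105 FPKM in IL-1052 and 57.25, 100 and 89.05 FPKM in IL-2750. Without both lines 81 genes lay above and 38 below. Replicate 2 also held RNA of genes known from pancreatic acinar cells, described further on with the genes outside the range in 1 mouse.

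Both IL-3575 livers lay above all others for 72 genes (0.638% of those tested) and below all others for 33 (0.292%). In the 15 other lines with 2 mice, the same count ran from 2 to 943 genes, with a median of 108. The lowest count was that of IL-1052, whose mates were not always alike, and the next lowest was 19, of IL-3438. Of the 105, 98 differed by less than 1.5-fold between the 2 livers (93.3%), which the rule favours by asking both to lie on the same side, and over the 10772 tested genes above 0 in both livers the share was 88.6%. Most members lay just outside the range. The lower of the IL-3575 mice exceeded the highest other mouse by more than 1.2 times for 18 genes, and the higher of them was under the lowest other mouse by more than 1.2 times for 10. Just outside the range stood Ubtf, at 15.2 and 14.7 FPKM against a highest other value of 14.7, and Churc1, at 13.2 and 13.8 FPKM against a lowest of 13.8. Just inside it stood Dnmt1, at 1.95 and 2.02 FPKM against a highest other value of 1.95, and Psenen, at 39.2 and 42.0 FPKM against a lowest of 41.9. Which genes were members also depended on the scale. On the TMM scale of fragment counts 53 genes lay above and 53 below, and 69 of the 105 were shared. In TPM 71 lay above and 26 below, and 88 were shared. The median gene of IL-3575 was shifted against the other mice by 0.08 (log2) in FPKM, by 0.11 in TPM and by 0.01 in TMM-scaled counts. Of the members named in the text, Rpl28-ps3, Rps19-ps7, Hjurp, Fetub, Dpp7, Abhd10, Hexa, Arvcf, Ppt2, Lpcat3, Masp2 and Mpp1 were not outside the range on the TMM scale. Pnkd, Epm2a, Pex16, Ufd1l, Sra1, Lage3, Pnp and Nfkbia were not outside it in TPM, and Ubtf and Churc1 on neither of these scales. The members were of many kinds, 92 protein coding, 8 pseudogenes, 4 processed transcripts and 1 lincRNA by annotation.

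The line was also tested on fragment counts, summed over the mice of a line, with edgeR's quasi-likelihood test of IL-3575 against the other 28 lines. It called 35 genes higher (0.31% of those tested) and 6 lower (0.0532%) at an adjusted p under 0.05. Of the 35, 24 belong to the pancreatic acinar list and were high in replicate 2 alone, and so were Amy2a3 and Amy2a2, pancreatic amylase genes that are not on the list. The test rests on the spread between the other lines and assumes that IL-3575 varies like them, since it is a single line. Of the 105 members, 7 passed. They were RP24-345H5.2, Hnmt and Tmem123, which were lower, and Echdc3, Gm13509, Ehbp1 and Prss8, which were higher. DESeq2 on the same sums called 18 genes higher and 69 lower, among them 6 of these 7, all but Prss8.

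Hnmt, which encodes histamine N-methyltransferase, the enzyme that inactivates histamine inside cells by methylation, had the largest fall among the members that passed. It lies on chromosome 2 (chr2:23858430-23904914, minus strand). The IL-3575 livers held 1.36 and 1.38 FPKM, from 59 and 64 fragments. The other mice ran from 1.97 to 26.8 FPKM, with a median of 11.1. Both livers were thus at about the same level, under the lowest of the 53, the mouse of IL-4032. That mouse was nearly as low, and the next lowest, of IL-785, had 5.30 FPKM. The log2 fold change was -3.22 (SE 0.702, edgeR adjusted p = 0.023). The call was lost in 3 of 41 alternatives, at adjusted p = 0.074 without replicate 2, 0.058 with body weight in the model and 0.566 with limma voom.

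Tmem123, a gene for a membrane glycoprotein of the cell surface, stood at 4.15 and 4.56 FPKM. The lowest other mouse had 7.18 FPKM, the median was 11.2 and the highest 18.4. The groups did not overlap, with a gap of more than 1.5 times between them. Its log2 fold change was -1.41 (SE 0.275, edgeR adjusted p = 0.0069). It lies at chr9:7764041-7794333 on the plus strand.

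RP24-345H5.2, a noncoding processed transcript on the minus strand of chromosome 16 (chr16:26714532-26755588), had the smallest adjusted p of the members. It stood at 20.5 and 14.5 FPKM in IL-3575, while the other mice ran from 47.6 to 115 FPKM with a median of 84.2. Its log2 fold change was -2.18 (SE 0.239, edgeR adjusted p = 2.7e-06). For 15672 bases it overlaps the end of Il1rap, the gene of the co-receptor through which interleukin-1 signals, which runs on the plus strand. Il1rap stood at 118 and 90.4 FPKM against 36.1 to 95.1 FPKM (median 63.3), so that replicate 1 lay above the range and replicate 2 within it, and its log2 fold change of 0.58 did not pass (SE 0.283, edgeR adjusted p = 0.999). The counting did not use the strand, and reads of the 2 genes cannot be told apart where their exons overlap.

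**Figure D1:**
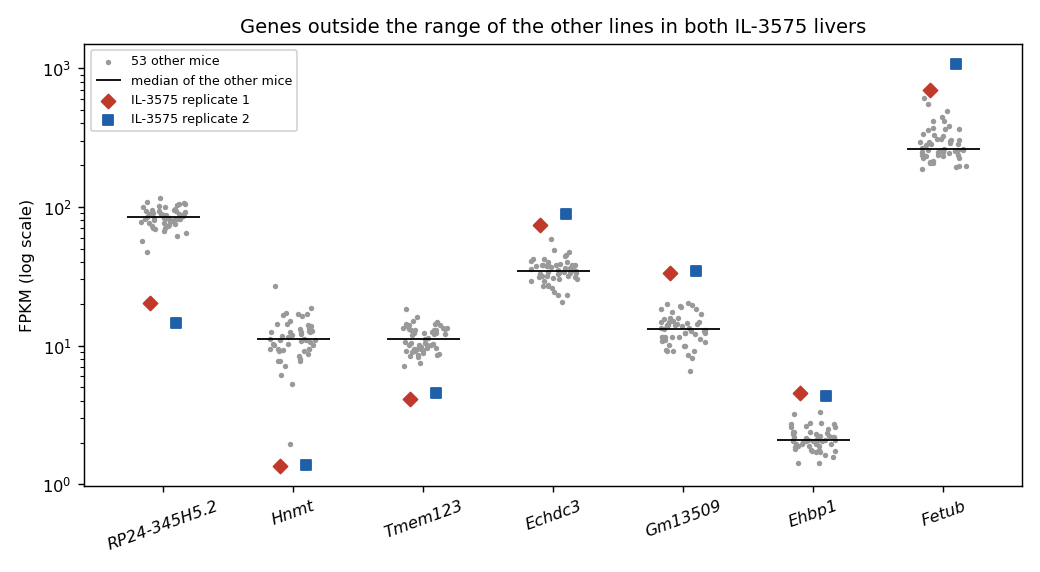
FPKM on a log scale of genes with both IL-3575 livers outside the range of the other lines, each point 1 mouse, with replicates 1 and 2 of IL-3575 marked and a line at the median of the 53 other mice. RP24-345H5.2, Hnmt and Tmem123 lie below every other mouse and Echdc3, Gm13509 and Ehbp1 above.

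Echdc3, which encodes a mitochondrial protein of the enoyl-CoA hydratase family, had 73.5 and 88.6 FPKM. The other mice ran from 20.5 to 58.3 FPKM, with a median of 34.6. Both livers lay clear of the highest of them, a mouse of IL-2750. This gave a log2 fold change of 1.15 (SE 0.237, edgeR adjusted p = 0.013). Without replicate 2 the adjusted p was 0.241, the only alternative of 41 in which the call was lost. Echdc3 lies at chr2:6109511-6134079 on the minus strand.

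Ehbp1, the gene of a protein that links endocytic vesicles to actin, had 4.52 and 4.37 FPKM against 1.42 to 3.32 FPKM in the other mice (median 2.1). A log2 fold change of 0.94 was fitted (SE 0.207, edgeR adjusted p = 0.025). It lies at chr11:21905831-22242295 on the minus strand, and about 500 fragments stood behind it in each liver (491 and 538). The call was lost in 3 alternatives, at adjusted p from 0.053 to 0.071.

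Prss8 encodes prostasin, a serine protease anchored to the membrane of epithelial cells. It had 4.84 FPKM in replicate 1 and 20.3 FPKM in replicate 2, against 0.43 to 4.19 FPKM in the other mice (median 1.51). Both livers were above the range, replicate 1 by little, and they differed 4.19-fold from each other. Its log2 fold change was 2.87 (SE 0.604, edgeR adjusted p = 0.016), and without replicate 2 the adjusted p was 0.989. Replicate 2 is the liver with pancreatic acinar RNA, whose list summed to 1231 FPKM there and to 9.14 FPKM in replicate 1, and the part of that RNA in the value of Prss8 was not tested.

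Gm13509 is annotated as a pseudogene on chromosome 2 (chr2:49163675-49164982, plus strand). It stood at 33.4 and 34.4 FPKM, above the other mice at 6.58 to 20.1 FPKM (median 13.3). The log2 fold change was 1.25 (SE 0.272, edgeR adjusted p = 0.023), and the call was lost without replicate 2 (0.091) and with body weight in the model (0.096). Gm13509 matches the whole coding sequence of Ap2m1, the gene of a subunit of the clathrin adaptor AP-2, at 99.7% of its 1308 bases, with 4 mismatches. Of the 1259 windows of 50 bases in that coding sequence, 1097 have an identical copy in Gm13509, so a read of 50 bases often has no base that tells the copies apart. Ap2m1 itself lies on chromosome 16 (chr16:20535551-20544982) and had 54.2 and 56.7 FPKM against 49.5 to 109 FPKM (median 67.3), within the range. The sum of the 2 genes, 87.6 and 91.1 FPKM, also lay within the range of the other mice, 56.1 to 124 FPKM (median 81.3).

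The stretch of 80 bases shown here, coding bases 298 to 377 of Ap2m1 and the matching part of Gm13509 at chr2:49163972-49164051, holds 2 of the 4 mismatches, in capitals. It was chosen as the first 80 bases with the most mismatches. Bases outside the coding sequence, which RSEM could also use to divide fragments, were not compared. The reference letters are those of build NCBI37.
Ap2m1: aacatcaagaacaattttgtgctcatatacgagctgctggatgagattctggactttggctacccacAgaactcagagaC
Gm13509: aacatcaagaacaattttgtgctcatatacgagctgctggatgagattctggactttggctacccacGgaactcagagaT

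Several other members are copies of expressed genes, and they include the members listed at 0 in most other mice. Rpl28-ps3, a copy of the gene of ribosomal protein L28 (chr4:125747071-125747561, minus strand), had 122 and 124 FPKM in IL-3575. It was listed at 0 in 38 of the other 53 mice. Both mice of IL-519 were also high, at 102 and 96.5 FPKM, with Rpl28 at 132 and 140 FPKM. No mouse of a further line passed 1.31 FPKM. Rpl28-ps3 matches the Rpl28 coding sequence at 99.3% of 414 bases. Rpl28 itself was at 155 and 148 FPKM, near the low end of the other mice (132 to 434 FPKM, median 253). The sum of both was 277 and 272 FPKM, within 174 to 434 FPKM in the other mice (median 253). The high Rpl28-ps3 estimates of IL-3575 thus came with low Rpl28 estimates, and the total lay near the middle of the other lines.

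Gm14059, a copy of Rps12 at 99% identity, had 54.2 and 53.3 FPKM, just above the highest of the other mice at 50.2, of which 42 were listed at 0. Gm7399, a copy of Hnrnpa3 at 98.5%, had 7.53 and 7.90 FPKM, and 48 of the other mice were at 0. Rps19-ps4, Rps19-ps7 and Rps19-ps3, copies of the gene of ribosomal protein S19 at 97.7%, 96.6% and 95.4%, had 8.55 to 18.5 FPKM. Vma21-ps and Gm11380, copies of Vma21 and Rpl17, had 2.23 to 2.96 FPKM. For Gm13988 no match to a coding sequence was found. Apart from Gm13509, none of these copies passed edgeR's test (smallest adjusted p = 0.390, for Rps19-ps3). For each of the 9 with a match, the sum of copy and parent lay within the range of the other mice in both livers. Where a copy was small beside its parent, the parent largely set the place of the sum. This held for Gm11380 beside Rpl17 (259 and 280 FPKM) and for the Rps19 copies beside Rps19 (161 and 146 FPKM). The share of the copies' values that comes from their parents was not tested.

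The following stretches hold some of the differences, in capitals, of 3 of these copies from the coding sequence they match, 2 of 3 for Rpl28-ps3, 2 of 4 for Gm14059 and 6 of 15 for Rps19-ps7. They span coding bases 228 to 307 of Rpl28, 30 to 109 of Rps12 and 221 to 300 of Rps19, and the copies at chr4:125747218-125747297 (minus strand), chr2:122045758-122045837 (plus strand) and chr2:139898906-139898985 (minus strand), in build NCBI37. Each stretch is 80 bases long and was chosen for holding the most differences.
Rpl28: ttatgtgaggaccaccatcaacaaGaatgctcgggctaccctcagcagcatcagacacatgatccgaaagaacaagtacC
Rpl28-ps3: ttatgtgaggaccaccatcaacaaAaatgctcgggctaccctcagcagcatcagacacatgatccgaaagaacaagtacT
Rps12: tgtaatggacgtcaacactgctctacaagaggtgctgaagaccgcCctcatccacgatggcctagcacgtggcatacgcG
Gm14059: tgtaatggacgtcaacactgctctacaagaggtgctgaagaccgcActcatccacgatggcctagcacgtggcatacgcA
Rps19: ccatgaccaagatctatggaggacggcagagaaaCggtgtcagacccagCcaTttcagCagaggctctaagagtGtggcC
Rps19-ps7: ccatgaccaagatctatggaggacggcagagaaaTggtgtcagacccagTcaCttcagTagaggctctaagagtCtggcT

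**Figure D2:**
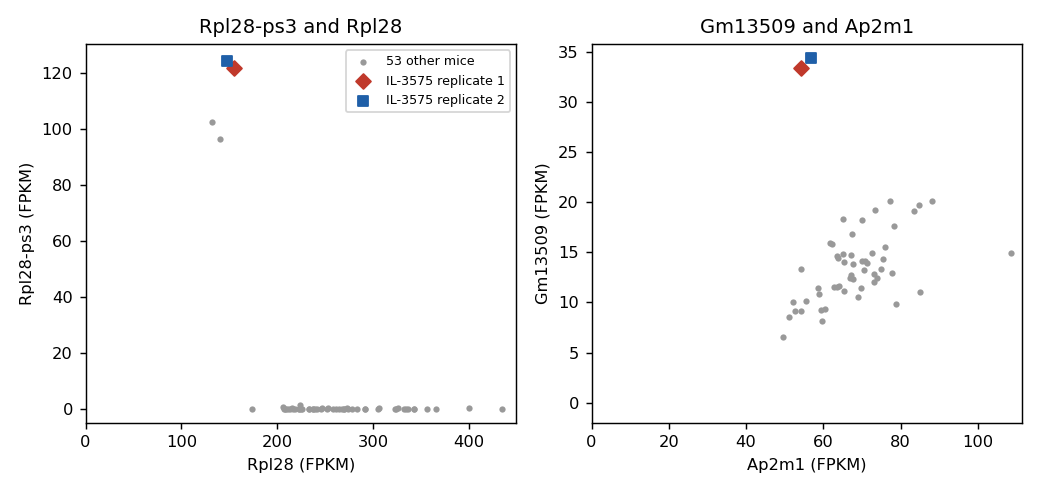
FPKM of copies (vertical axis) against FPKM of the gene each matches (horizontal axis), each point 1 mouse with the IL-3575 replicates marked. The IL-3575 livers are highest for Gm13509 and Rpl28-ps3, while Ap2m1 and Rpl28 stay within the range of the other mice.

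The other members are described here by what their products do. The genes named in this account by function were chosen after their values were seen, and none passed edgeR's test. Among secreted and cell-surface proteins, Fetub, the gene of the plasma protein fetuin-B, which the liver makes, was the most abundant member above the range. Its 691 and 1071 FPKM lay above the other mice, at 189 to 615 FPKM (median 261). The log2 fold change of 1.5 (SE 0.353) did not pass, at an edgeR adjusted p of 0.053, and Fetub passed in 10 of 41 alternatives. Itgb5, which encodes the integrin beta-5 subunit, had 32.3 and 32.6 FPKM against 11.9 to 25.2 FPKM (median 17.7, edgeR adjusted p = 0.120). Ceacam2, a cell adhesion gene, had 38.2 and 39.2 FPKM, while the other mice had a median of 0.27 and a highest value of 20.7 FPKM, in IL-557. Sod3, the extracellular superoxide dismutase, had 10.0 and 9.93 FPKM just above a highest other value of 9.68. Ecm1, an extracellular matrix gene, had 74.0 and 60.8 FPKM against 11.9 to 58.2 FPKM (median 31.3). Lgr4, which encodes a receptor for R-spondins, had 16.8 and 16.4 FPKM against 7.36 to 15.8 FPKM (median 10.9).

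Members above the range also included enzymes and a peroxisome gene. Among the 6 named here, Sphk2 alone was also outside on both other scales. Hexa, the alpha subunit of lysosomal hexosaminidase A, had 27.5 and 31.8 FPKM against 4.60 to 25.9 FPKM (median 17.0). Ppt2, a lysosomal thioesterase, had 29.3 and 28.7 FPKM against 11.7 to 25.5 FPKM (median 16.3), and Dpp7, a dipeptidyl peptidase, had 22.7 and 25.2 FPKM against 6.81 to 20.7 FPKM (median 12.0). Sphk2, a kinase that makes sphingosine 1-phosphate, had 18.9 and 18.8 FPKM against 3.65 to 15.4 FPKM (median 9.87). It overlaps Rpl18 (211 and 200 FPKM) on the other strand for 2546 bases, and the counting did not use the strand. Lpcat3, which puts polyunsaturated fatty acids into phospholipids, had 44.4 and 46.2 FPKM against 20.7 to 44.0 FPKM (median 32.8). Pex16, needed to build peroxisomes, had 62.0 and 62.4 FPKM, just above the highest other mouse at 61.7. For most of these genes the IL-3575 livers stood at less than 2 times the median of the other mice and close to the highest of them.

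Of genes that act on chromosomes, Hjurp, whose product loads the centromeric histone CENP-A, had 30.1 and 45.5 FPKM against 1.58 to 28.8 FPKM (median 11.5), and Cenpm, a centromere gene, had 4.45 and 5.45 FPKM against 0.20 to 3.89 FPKM (median 1.42). Zfp872, a zinc finger gene, had the widest gap of the members above the range. It stood at 2.21 and 3.21 FPKM, while the highest other mouse reached 0.75 and the median was 0.17 FPKM (log2 fold change 3.49, SE 0.913, edgeR adjusted p = 0.148). It is 1 of 5 members for which all other mice stayed under 2 FPKM.

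The members below the range covered enzymes, sorting proteins and regulators. Cyp17a1, which encodes the steroid 17-alpha-hydroxylase, had 0.08 and 0.07 FPKM from 4 fragments in each liver. The other mice ran from 0.15 to 87.5 FPKM with a median of 1.14, so that the gene was low in many of them and the log2 fold change of -5.98 had an SE of 3.42 (edgeR adjusted p = 0.999). Sort1, the gene of sortilin, a sorting receptor involved in lipoprotein export, had 0.35 and 0.40 FPKM against 0.43 to 7.63 FPKM (median 2.83). St3gal5, which encodes the synthase of ganglioside GM3, had 14.4 and 11.1 FPKM against 14.5 to 102 FPKM (median 33.3). Pnp and Itpa, enzymes of purine nucleotides, had 16.2 and 16.8 FPKM against a lowest of 17.1 and 9.12 and 8.37 FPKM against a lowest of 9.80. Tsc22d3, a gene known to be induced by glucocorticoids, had 10.9 and 16.7 FPKM against 17.5 to 154 FPKM (median 56.7). Nfkbia, the inhibitor of NF-kappa-B, had 11.7 and 8.90 FPKM against 12.3 to 37.4 FPKM (median 17.7).

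Further members below the range had wide gaps to the median. Gm16573 had 1.10 and 1.30 FPKM against 1.85 to 23.7 FPKM (median 10.1). It overlaps Parp4, on the other strand, which was within its range. Mpp1, a membrane scaffold gene on the X chromosome, had 1.58 and 1.71 FPKM against 1.95 to 17.9 FPKM (median 11.3), with a log2 fold change of -2.59 (SE 0.613, edgeR adjusted p = 0.055). Cep57, a centrosome gene, had 1.78 and 1.64 FPKM against 2.07 to 4.99 FPKM (median 3.89, edgeR adjusted p = 0.083). Over the 33 members below the log2 fold changes ran from -5.98 to -0.43, with a median of -1.41. Over the 72 members above they ran from 0.24 to 4.81, with a median of 0.86, and over all tested genes the median was -0.04. These medians describe genes that were chosen for lying outside the range.

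The members were spread over all autosomes and the X chromosome. Chromosome 16 held 8 of its 341 tested genes (2.35%) and chromosome 2 held 20 of 912 (2.19%), against 0.931% over all tested genes. On the X chromosome all 5 members lay below (Mpp1, Lage3, 1110012L19Rik, Tsc22d3 and Cxx1b), and on chromosome 12 all 4. Chromosome 11 had the smallest share of the autosomes with members, 2 of 936. These shares are given as a description. Of the 105 members, 39 overlap another annotated gene on the other strand (37.1%), and 32.3% of all tested genes with a position do.

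**Figure D3:**
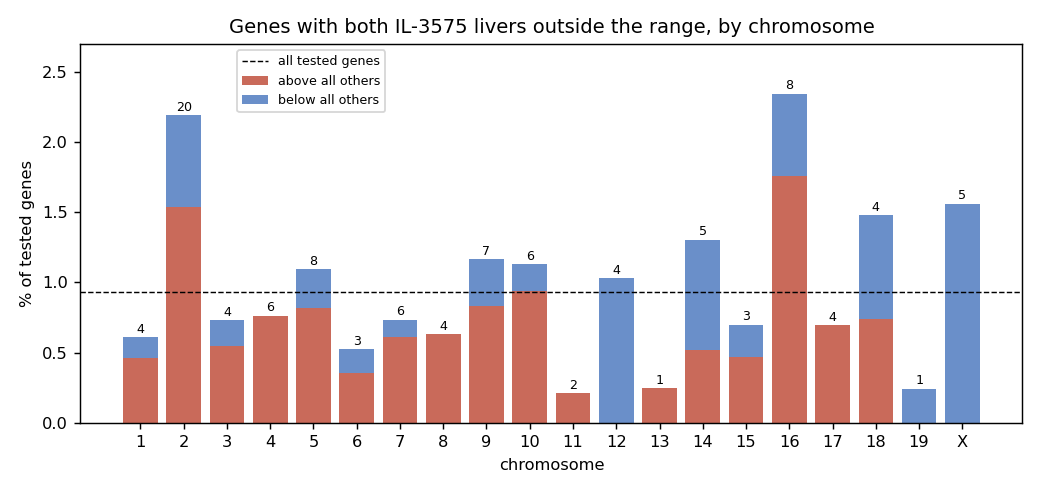
Percentage of the tested genes of each chromosome for which both IL-3575 livers lay above all other mice (red) or below them (blue), with a dashed line at the share over all tested genes (0.931%). Chromosomes 16 and 2 have the tallest bars, and the bars of chromosomes X, 12 and 19 hold genes below the range alone.

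On chromosome 16, 14 genes between chr16:15848534 and chr16:45953711 stood apart in IL-3575 by at least 1 measure, out of 171 tested genes in that span, which was drawn after the values were seen. They were the 8 members, 3 more genes that edgeR called and 3 more with an isoform ratio outside the range. The span runs from the first to the last of these 14 genes. The share of all tested genes that stood apart by at least 1 of these measures was not counted, so the 14 have no background beside them. Of the 17 called genes that are not in the pancreatic list, which include both amylases, 4 lie in this span. It holds 171 of the 11284 tested genes. Because the span was set by the 14 genes, which include these 4, this count is a description only. Iqcg had 12.4 and 17.1 FPKM, while the other mice had a median of 0.50 and a highest value of 14.1 FPKM (log2 fold change 3.85, SE 0.770, edgeR adjusted p = 0.0093). Replicate 1 thus lay within the range, and the highest other mouse was of IL-2750. Spice1, a gene of the centriole, had 1.99 and 2.55 FPKM against 0.31 to 2.25 FPKM (median 0.81, edgeR adjusted p = 0.036). The noncoding 1300002E11Rik had 3.09 and 3.57 FPKM against 2.96 to 7.76 FPKM (median 5.11, edgeR adjusted p = 0.013).

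The members described on chromosome 16 also included Pkp2, Arvcf, Ufd1l and Abhd10, beside Fetub, RP24-345H5.2 and Itgb5. Pkp2, the gene of the desmosomal protein plakophilin 2, had 15.1 and 12.1 FPKM against 5.14 to 10.9 FPKM (median 7.56). Abhd10, a hydrolase gene, had 4.16 and 5.06 FPKM against a highest other value of 4.10. Arvcf, a catenin of cell junctions (chr16:18348275-18407169, plus strand), had 3.40 and 3.41 FPKM against 0.72 to 3.28 FPKM (median 1.84). Ufd1l, a ubiquitin-binding cofactor of protein degradation, lies nearby and was just below the range, at 12.0 FPKM in both livers against a lowest of 12.1. Txnrd2, the gene of the mitochondrial thioredoxin reductase, lies between Arvcf and Ufd1l and was at 10.1 and 10.4 FPKM, within the range but near its lowest value of 10.0. Neighbours on this chromosome therefore were not all on the same side.

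Over the genome, 10 pairs of members (19 genes) lay within 1 Mb of each other, and in 7 pairs both genes were on the same side of the range. These counts are a description, with no background over all genes beside them. The pairs included Rab32 and Epm2a on chromosome 10, Ppt2 and Gm20522 on chromosome 17, 0610010O12Rik and Sra1 on chromosome 18, Lgr4 and Gm13936 as well as Fmn1 and C130080G10Rik on chromosome 2, Rps19-ps3 and Masp2 on chromosome 4, Cep57 and Sesn3 on chromosome 9, and Lage3 and Mpp1 on the X chromosome. Fmn1, a formin gene, had 6.39 and 6.75 FPKM against 0.22 to 4.82 FPKM (median 0.98), and the lincRNA C130080G10Rik had 5.71 and 4.01 FPKM against a median of 0.05 and a highest value of 2.82 FPKM. Epm2a, the gene of the glycogen phosphatase laforin, had 4.24 and 4.26 FPKM, just over the highest other mouse at 4.18. Its neighbour Rab32, a small GTPase gene, had 28.1 and 25.1 FPKM against a highest of 24.2. On chromosome 18, 0610010O12Rik had 1.12 and 1.25 FPKM against 1.96 to 15.4 FPKM (median 7.17), and Sra1, known for an RNA coactivator of steroid receptors, had 30 and 30.2 FPKM against a lowest of 31.1. Cep57 and Sesn3, a stress-induced regulator of mTORC1, were on opposite sides. Sesn3 had 5.19 and 4.39 FPKM against 0.92 to 3.51 FPKM (median 2.16).

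The isoform ratio gives, in percent, how much of the expression of a gene RSEM assigned to 1 isoform. In genes with at least 50 fragments in every mouse, 39219 isoforms were compared. Both IL-3575 livers lay outside the range and at least 20 points from the median for 23 of them, 11 above (0.028%) and 12 below (0.0306%), together 0.0586%, in 16 genes. Of these genes 5 lie on chromosome 16, which is 1.79% of the 280 genes compared there, against 0.189% over all chromosomes. For 4 of the 16 genes (Tmem188, Fetub, RP24-345H5.2 and Pnkd) total expression was outside the range as well.

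The largest difference was in Tmem188, now named Cnep1r1, a regulatory subunit of a phosphatase of the nuclear envelope (chr8:90642668-90659009, plus strand). Isoform ENSMUST00000095214 took 16.4% and 13.7% of its expression in IL-3575, while it took 67.8% to 95.7% in the other mice (median 84.1%). Isoform ENSMUST00000117775 took 42.6% and 38.3% against at most 7.53% elsewhere, and ENSMUST00000131891 to 28.6% and 35.1% against at most 3.83%. The mates were alike and the groups far apart for all 3 isoforms, with 605 and 664 fragments of the gene behind the ratios. The isoforms differ at their ends. ENSMUST00000095214 has its last exon at 90657687-90659005, and ENSMUST00000117775 ends in an exon at 90654616-90654969, before it.

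The Tmem188 coding sequence therefore ends differently, with 375 coding bases in all for ENSMUST00000095214 and 339 for ENSMUST00000117775. Both sequences start in the same exon, and capitals mark the coding bases of the last exon, 39 in the distal and 3 in the proximal one (chr8:90654246 onwards, build NCBI37, plus strand).
Tmem188 distal: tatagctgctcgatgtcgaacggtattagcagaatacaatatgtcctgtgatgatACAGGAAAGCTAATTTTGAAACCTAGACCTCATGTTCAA
Tmem188 proximal: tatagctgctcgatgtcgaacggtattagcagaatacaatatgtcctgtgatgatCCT

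Total expression of Tmem188 was 24.6 and 24.4 FPKM, against 5.36 to 12.96 FPKM in the other mice (median 7.67), a gap of 1.88 times to the highest of them. FPKM divides by isoform length, and the isoforms with the higher ratios are 728 and 528 bases long against 1731 for the other. In fragments the gene had 605 and 664, against a median of 356. The log2 fold change in fragments was 0.65 (SE 0.215), and edgeR's test did not call it (adjusted p = 0.610).

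For Fetub, isoform ENSMUST00000167399, which starts at an alternative first exon (chr16:22921818-22921948), took 65.2% and 66.0% in IL-3575. In the other mice it ran from 3.42% to 60.4%, with a median of 10.0%, and the highest was a mouse of IL-4457. Its mate had 53.8% and the mouse of IL-4141 had 53.9%. Replicates 1 and 2 of IL-2750 had 43.2% and 44.7%, and the IL-1052 mice 37.2% and 41.6%. A high ratio was thus not particular to IL-3575. ENSMUST00000023587, with its first exon at 22920295-22920568, took 30.7% and 30.6% against 38.9% to 80.9% (median 72.1%). The alternative first exons hold no coding bases, and both isoforms have 1164 coding bases. With 26487 and 49439 fragments of Fetub, these ratios are among the best covered of the 23.

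In RP24-345H5.2, ENSMUST00000172522 took 97.9% in both livers against 45.2% to 77.4% (median 67.5%). ENSMUST00000173291 took 0% and 1.42% against 21.1% to 54.8% (median 32.1%). Its last exon, 26730005-26730347, runs over the end of Il1rap at 26730203, so reads there can belong to either gene. Serpind1 encodes heparin cofactor II, an inhibitor of thrombin. Its ENSMUST00000161034 took 80.3% and 88.4% against 44.2% to 65.6% (median 52.4%), while total Serpind1 was within the range at 293 and 297 FPKM. In Phldb2, the noncoding isoform ENSMUST00000136317 took 1.2% and 1.00%, against 2.29% to 68.2% in the other mice (median 46.7%). Low ratios also stood in replicates 1 and 3 of IL-785 (3.49% and 2.29%) and in the mouse of IL-2693 (8.66%). Replicate 2 of IL-785 had 27.0%.

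**Figure D4:**
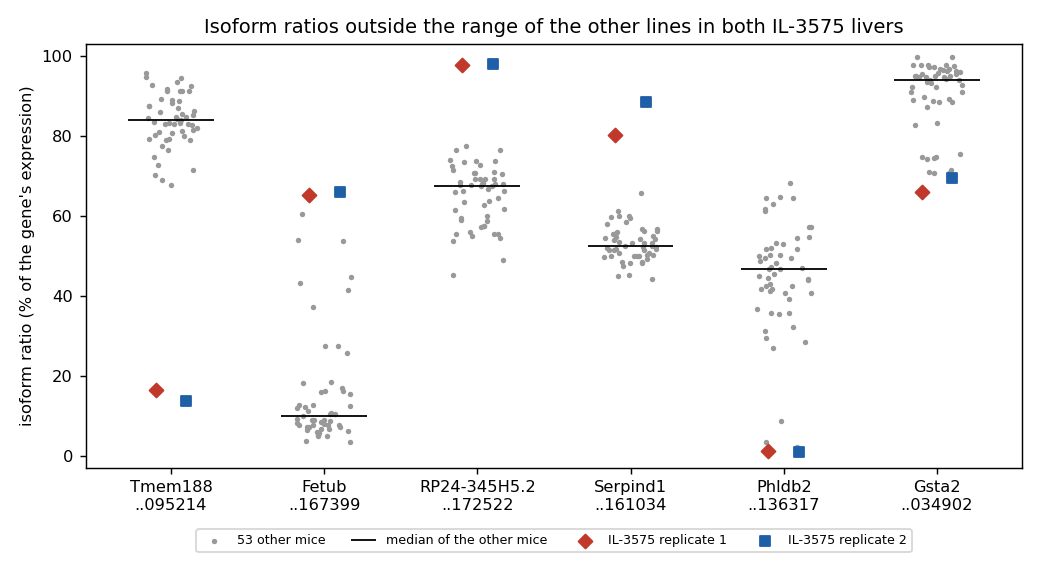
Isoform ratio in percent of the gene's expression for 1 isoform of each of 6 genes (the last digits of the isoform identifier stand under the gene), each point 1 mouse, with the IL-3575 replicates marked and a line at the median of the 53 other mice. For Tmem188, RP24-345H5.2 and Serpind1 a wide gap separates both IL-3575 livers from the others, and for Fetub, Phldb2 and Gsta2 some other mice come close.

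Gsta2, an alpha-class glutathione transferase, was within the range in total expression, at 39.7 and 63.2 FPKM against 6.37 to 231 FPKM (median 29.9). Its main isoform ENSMUST00000034902 took 66.0% and 69.5% against 70.6% to 99.8% (median 94.0%), and ENSMUST00000129247 took 22.6% and 24.8%, against a median of 1.47% and a highest value of 23.5% in IL-519. The main isoform was nearly as low, at 70.6% to 75.5%, in all mice of IL-219, IL-519, IL-611, IL-2689 and IL-2693. The study associated the Gsta2 isoform ratio with a nearby locus, where it gave IL-611 and IL-3575 as carriers of the C57BL/6J haplotype. Cfhr2, a gene related to complement factor H, had ENSMUST00000094489 at 32.7% and 33.4%, close to the lowest other mouse at 34.7% (median 75.4%). Mzt2, Glyctk, Glrx2, Sec23a, Pnkd, Mospd1, Pou6f1, Slc11a2 and Dnajc1 complete the 16 genes. Glyctk, glycerate kinase, had ENSMUST00000036382 at 31.6% and 32.5% against 33.1% to 72.9% (median 64.2%). Glrx2, a mitochondrial glutaredoxin, had ENSMUST00000050491 at 75.3% and 74.9% against a highest other value of 74.7% (median 53.8%), just outside the range.

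Genes outside the range in 1 of the 2 mice were not members. Replicate 1 alone lay above for 172 genes and below for 62, and replicate 2 alone above for 153 and below for 58. Pancreatic genes were among the latter. Of the 28 tested genes of the pancreatic acinar list, 26 were above the range in replicate 2 alone, and 24 were called by edgeR. Outside the list, Amy2a3 had 0.01 and 120 FPKM against at most 0.87 FPKM, with the smallest adjusted p of the test (5.3e-07), and Amy2a2 had 0.01 and 283 FPKM against at most 33.7 (edgeR adjusted p = 0.015). Amylase copies share sequence, and the division of their reads is uncertain. Ctrb1, a chymotrypsinogen, had 0.05 and 228 FPKM, against at most 15.8 FPKM in the other mice. Pnlip, pancreatic lipase, had 0.03 and 93.1 FPKM, against at most 7.26. The whole list of 35 genes summed to 9.14 FPKM in replicate 1, where 27 were at 0, and to 1231 FPKM in replicate 2. In the other mice it ran from 1.62 to 129 FPKM, with a median of 23.7. The islet list summed to 0 and 0.92 FPKM, and none of its 8 genes passed the FPKM minimum. The list took 0.12% of the fragments of replicate 2, and without that mouse 8 genes were called higher and 6 lower, none of them pancreatic.

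Replicate 1 alone had very high Sult3a1 and Gm4794, neighbours on chromosome 10 (chr10:33583741-33599322 and chr10:33486230-33501921). Sult3a1 is a sulfotransferase whose expression in mouse liver is known to be higher in females. It had 717 FPKM in replicate 1 and 0.03 in replicate 2, while the other mice had a median of 0.03 and at most 28.2 FPKM. Gm4794 had 210 and 0 FPKM against at most 4.39. Both were called by edgeR (adjusted p = 0.00088 and 1.4e-05), yet the line mates were at opposite ends, and Xist was at 0 in replicate 1. Of the 33 tested genes of the male-biased and growth hormone list, 1 lay outside the range in either mouse, and this was Sult3a1.

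**Figure D5:**
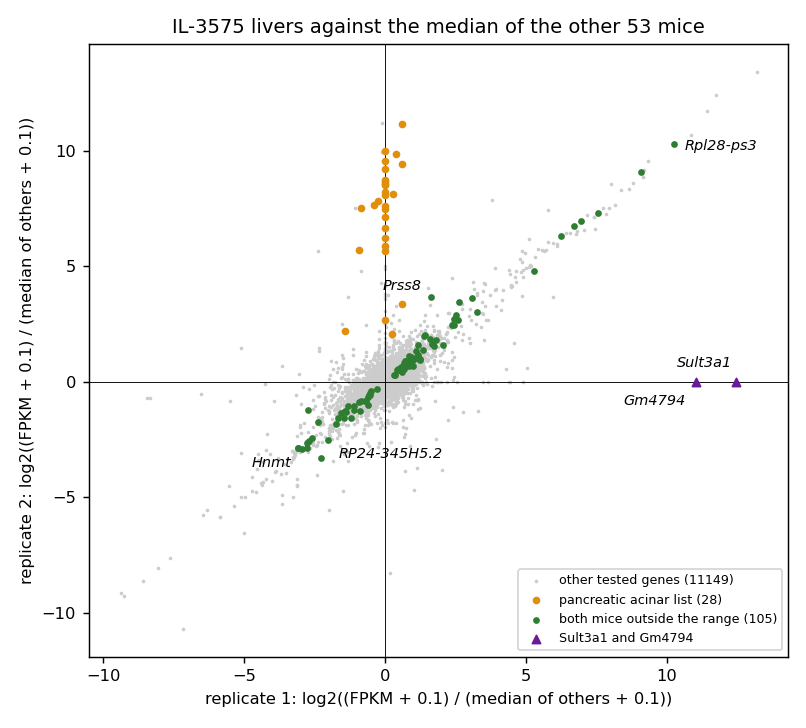
Log2 ratio of FPKM + 0.1 to the median of the 53 other mice + 0.1, replicate 2 against replicate 1, each point 1 tested gene. The 105 members lie on the same side in both mice, as their rule requires, the pancreatic acinar genes stand high in replicate 2 with replicate 1 near 0, and Sult3a1 and Gm4794 stand high in replicate 1 alone.

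The mates also differed in genes of fat synthesis and of the clock. The 18 genes of fatty acid synthesis summed to 2087 FPKM in replicate 1 and 5022 FPKM in replicate 2, with the other mice between 793 and 5170 (median 1852). Replicate 2 exceeded replicate 1 by more than 1.5 times for 12 of the 18, and the other 6 lay within 1.5 times. Most of the difference in the sum was Scd1, and without it the list summed to 853 and 1591 FPKM, both within the other mice at 662 to 2900 (median 1308). Scd1, the stearoyl-CoA desaturase, had 1235 and 3431 FPKM against at most 2269, and Acss2, which makes acetyl-CoA from acetate and was picked after its values were seen, had 104 and 232 FPKM against at most 124. Thrsp, a lipogenic gene, was at 27.97 and 297 FPKM against 29.7 to 1086 FPKM. Among clock genes, Per1 and Per2 had 0.10 and 0.38 FPKM in replicate 1, below the range, and 0.66 and 1.14 FPKM in replicate 2, within it. Clock had 7.88 FPKM in replicate 1, above the highest other mouse at 7.09, and 4.98 in replicate 2. The labels give no hour of dissection, and none of these genes was called by edgeR.

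Over 28 lists of liver pathways, 562 genes were tested. Both livers lay above the range for 1 (Masp2), below it for none, and edgeR called 1 (Sult3a1), against 0.931% of all tested genes outside the range and 0.363% called. Masp2, which encodes a serine protease of the lectin pathway of complement, had 150 and 154 FPKM against 75.1 to 145 FPKM (median 107), with a log2 fold change of 0.27 (SE 0.225, edgeR adjusted p = 0.999). Of the 40 drug disposition genes of the study, which were chosen on these samples, none lay outside the range in both mice in total expression and none was called. Of these genes, Gsta2 and Glrx2 are among the 16 with an isoform ratio outside the range. Their median log2 fold change was -0.36. The medians of the lists ran from -1.44 for immediate early genes, where none of 18 had a fold change above 0, to 0.90 for MHC class II, where 7 of 8 were above 0. These fold changes are against the mean of the other lines, which a few high lines can raise. In summed FPKM, the immediate early list had 66.1 and 153 in replicates 1 and 2. The other mice had a median sum of 90.7 and a highest of 1020, so replicate 2 lay above the median. The Cyp3 and Cyp4 list summed to 2440 and 2278 FPKM, against a median of 2756. Heat shock and ER chaperones had a median log2 fold change of -1.01, with 2 of 30 above 0, and interferon-stimulated genes -0.85, with 4 of 32 above 0. The Cyp3 and Cyp4 families had a median of -1.34 and the Cyp2 family of -0.74, while lipoproteins (0.03), bile acid synthesis (0.09) and hepatic transporters (-0.03) lay near the median of all genes. No member of these lists passed the test apart from Sult3a1.

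Of the marker lists, endothelial genes were above the range in replicate 1 alone for 3 of 8 (Stab2, Cdh5 and Kdr). Over all 11284 tested genes, 172 were above in replicate 1 alone. The endothelial list summed to 81.6 and 52.3 FPKM against 17.9 to 91.5 FPKM. The list of stellate cells and fibroblasts had 1 of 7 above in replicate 1 alone. In the Kupffer cell list 10 of 11 log2 fold changes were above 0 (median 0.51), and none was called. No marker gene of any of the 12 lists was outside the range in both mice. In bulk livers, a change in the number of cells of a type and a change in RNA per cell cannot be told apart.

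Both IL-3575 mice were light. Their mean weight was 17.6 g, against 22.8 ± 4.39 g (SD, n = 28 lines) in the other lines. The difference of -5.16 g was within the spread between lines (two-sided exact permutation test over 29 line means, p = 0.276, with 0.0345 the smallest it can give), and 3 lines were lighter. The difference in age was also within the spread between lines (9 weeks against 9.25 ± 1.03 weeks, two-sided exact permutation test, p = 0.793). With body weight as a covariate, edgeR called 25 genes, among them the members RP24-345H5.2, Tmem123, Echdc3, Fetub and Gm7399. Gm7399, the copy of Hnrnpa3, had a log2 fold change of 5.04 in that model (SE 1.05, edgeR adjusted p = 0.033). Hnmt, Gm13509, Ehbp1 and Prss8 were not called in it, with log2 fold changes of -3.13, 1.09, 0.95 and 2.63 against -3.22, 1.25, 0.94 and 2.87 without the covariate.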

How the data were processed

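Liver polyA RNA of 55 mice of 29 CC lines, all labelled male, was sequenced in pairs of 50 bases. Each mouse was assigned to its line by its strain label. The authors mapped the reads with Bowtie 2 and quantified them with RSEM version 1.2.18 at default parameters on mm9 (NCBI37) with Ensembl 67. The deposited expected counts are fragments estimated per gene, without normalization, and RSEM divides a fragment with several matches among them. The deposited FPKM and TPM are corrected for the effective length of a gene and for library size. The deposited isoform ratios (IsoPct) are the percent that an isoform takes of its gene. Although the library kit keeps the strand, default RSEM parameters do not use it. In the IL-3575 mice 22.9% and 25.2% of the expected counts above 0 were not whole, and they were rounded.

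Genes needed a maximum FPKM of at least 2. Rounded expected counts were summed over the mice of a line and tested with edgeR 4.0.16 (TMM, glmQLFit and glmQLFTest, R 4.3.3), IL-3575 against the 28 other lines, with Benjamini-Hochberg adjustment over 11284 genes and a threshold of 0.05. Summing weights a mouse by its depth. The places of the IL-3575 mice outside the range of the others are a description of FPKM and isoform ratios, with no test. The named genes were the members that passed edgeR with less than a 4-fold difference between the mates and were not pancreatic, members of the lists outside the range or called, neighbouring members, the 5 largest isoform ratio differences and Gsta2. Further genes were chosen after their values were seen. The members and lists were chosen with earlier results of these data known. Positions are from GENCODE M1 (Ensembl 65) on the same build, which matched 37205 of 37620 genes. Copies were compared with coding sequences by BLAST. DESeq2 1.42.0, limma 3.58.1 (voom with the line as a block), other filters, units, covariates and left-out mice or lines were alternatives. The alternative without IL-785 replicate 3 was chosen after seeing the data. Counts of these genes were also simulated, with the changed genes drawn from those with a mean of at least 50 fragments per line. There edgeR recovered 40 of 50 genes at 4-fold higher and 34 of 50 at 4-fold lower. At 2-fold it recovered 12 of 50 higher and 9 of 50 lower, and there were 5 false calls. The labels give no sequencing batch. P-values measure the spread between lines, and depth limits what genes with few fragments can show. Some members are counted but not reported here by name.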

Additional observations from a re-analysis of the deposited data

How the results depend on the processing

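Against 41 genes called in the main comparison, DESeq2 called 87 (18 higher, 69 lower), mice as the unit gave 121 (69 and 52), limma voom with the line as a block 102 (97 and 5), and body weight as a covariate 25 (19 and 6). Leaving out a mouse of IL-3575 gave 14 to 45, the 14 without replicate 2, where 10 of the 41 were shared. DESeq2 shared 19 and limma voom 10 of them. Other alternatives gave 40 to 58. Of 451 alternatives for 11 named genes, 427 kept the direction and the side of the threshold, 13 lost the call and 10 gained it, all for Fetub. The 1 reversal was Sult3a1, at -4.75 without replicate 1 (range -4.75 to 9.64 over single mice left out). RP24-345H5.2 and Tmem123 were called in all 41. Without replicate 2 no pancreatic gene was called, and the cause of the other differences was not tested.

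The 105 members became 316 without replicate 1 and 339 without replicate 2, where only 1 mouse had to lie outside, and 105 to 127 without 1 other line (127 without IL-2146). Without IL-785 replicate 3 they were 108. TPM gave 71 above and 26 below, a maximum FPKM of at least 1 gave 80 and 37, and at least 5 gave 54 and 31. The 23 isoform ratios became 104 to 139 without 1 IL-3575 mouse. Among pathway lists the 1 called gene became 4 with DESeq2, 3 with mice as the unit, 2 with body weight, 2 without IL-219, IL-521 or IL-785, and 0 without replicate 1. The 24 marker genes became 4 with DESeq2, 2 with limma voom, 8 with body weight and 0 without replicate 2. No paired analysis was possible because the replicate numbers only follow the order of the samples and pair no mice across lines.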
